A study of Homo sapiens with 3 samples.

Results

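Keratins are the intermediate filament proteins of epithelial cells. The mRNAs of 10 keratin genes were followed in 3 cultured human hepatocellular carcinoma (HCC) cell lines, out of 16149 genes listed in any library. The members were taken by gene symbol, without use of their values: KRT7, KRT8, KRT80, KRT81 and KRT86 of type II, and KRT10, KRT18, KRT19, KRT20 and KRT23 of type I. Of these 10 genes, 9 were listed in all 3 libraries, and KRT81 was at 0 in subclone 2. Mean levels reached at least 1 RPKM (reads scaled to the length of a gene and to the size of its library) in 7 members, and KRT23, KRT81 and KRT86 stayed below it.

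The parental line is HCCLM3 according to the labels, and HCCLM3-R, its derivative with red fluorescent protein, according to the methods of the study. The labels give the parent a low ability to metastasize, while the methods give HCCLM3-R a high metastatic potential. Subclone 1 is labelled as metastasizing more, to the lung, and subclone 2 as metastasizing to lung and celiac lymph node. The monoclones of the study descend from metastases in nude mice by limiting dilution, each from 1 cell. The sources used here do not say which of the named lines were sequenced. That each sequenced subclone is 1 clone is taken from its name. All 3 lines were grown in DMEM with no further treatment stated, and total RNA was made into TruSeq libraries, 1 per line. Totals of 4488825 (parent), 4609696 (subclone 1) and 4725150 (subclone 2) reads were recovered from the RPKM. A group of 1 library allows no test, so every interval given here is an exact 95% interval for counting error alone and compares libraries, not cell lines.

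Keratin filaments are built from heterodimers of 1 acidic type I chain and 1 basic type II chain, so that neither type forms a filament on its own. Hepatocytes are known for the pair KRT8 and KRT18 alone, whereas the cells of the bile ducts add KRT7 and KRT19. KRT20 is best known from intestinal epithelium, urothelium and Merkel cells. Pathologists use combinations of these chains, KRT7 and KRT20 above all, to trace the origin of carcinomas.

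The members lie in the 2 keratin clusters of the genome, with coordinates given here on GRCh38 from GENCODE although the RPKM were made on hg19. The type II genes are on chromosome 12, from KRT80 (52168996 to 52192000, minus strand) and KRT7 (52232520 to 52252186, plus strand) through KRT86 (52249300 to 52309163, plus strand) and KRT81 (52285913 to 52291534, minus strand) to KRT8 (52897187 to 52949954, minus strand). KRT18, of type I, is the exception to the split by chromosome: it lies beside KRT8 on chromosome 12 (52948871 to 52952901, plus strand), and the annotated ends of both genes overlap. The other type I members are on chromosome 17, all on the minus strand: KRT10 (40818117 to 40822595), KRT20 (40875941 to 40885227), KRT23 (40922696 to 40937634) and KRT19 (41523617 to 41528308).

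Keratins resemble each other in sequence, and stretches that several genes share decide how far their reads can be told apart. Neither the read length nor the treatment of shared reads is given in the sources used here. The coding sequence of each member was therefore cut into all windows of 50 bases, and each window was looked up in GENCODE transcripts of every other gene on both strands. KRT20 had no such window in another gene, KRT10 had 0.528% of its windows there, KRT80 1.31% and KRT19 2.09%. KRT23 had 7.89%, all in the antisense transcript AC004231.1. For KRT7 the share was 13.5%, and 13.0% of its windows were in its antisense gene KRT7-AS, whose reads cannot be told from those of KRT7 without strand. KRT8, with 50 annotated pseudogenes, had 48.4% of its windows in other genes, led by KRT8P3 with 28.2%. KRT18, with 67 pseudogenes, had 58.0%, led by the overlapping KRT8 with 26.3% and by KRT18P11 with 12.2%. The coding sequences of KRT8 and KRT18 shared no run longer than 15 bases. The windows found in KRT8 therefore lie in its transcripts outside the coding sequence used here, and both genes overlap on opposite strands. KRT81 had 57.2% and KRT86 56.8% of their windows in other genes, with 49.2% of the windows of KRT81 found in KRT86 and 51.2% of those of KRT86 in KRT81. With windows of 100 bases the shares were 20.4% for KRT18, 39.2% for KRT81 and 41.5% for KRT86.

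The longest run common to the coding sequences of KRT7 and the far more abundant KRT8 had 41 bases, shorter than the windows, and KRT80 shared a run of 65 bases with KRT8, the longest between members other than KRT81 and KRT86. The coding sequences of KRT81 and KRT86 were identical for 605 bases, from base 61 to base 665 counted from the start codon. The place where this run ends is shown because reads that lie within it cannot be assigned to either gene, and further shared windows lie outside it. The stretches are spliced coding sequence of GENCODE transcripts, without untranslated bases, from base 621 to base 710 of each gene, and capitals mark the last 45 bases of the shared run.
KRT81: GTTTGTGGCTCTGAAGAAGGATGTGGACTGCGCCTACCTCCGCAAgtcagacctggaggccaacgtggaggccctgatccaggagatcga
KRT86: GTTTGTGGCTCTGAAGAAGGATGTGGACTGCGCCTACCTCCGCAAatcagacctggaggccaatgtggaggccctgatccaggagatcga

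KRT8 and KRT18, the hepatocyte pair, were the most abundant keratin mRNAs in every library. KRT8, the type II chain of the pair, took 13054 reads of the parent library, or 1614 RPKM (95% interval 1586 to 1642), 13630 of subclone 1, or 1641 RPKM (1613 to 1669), and 14834 of subclone 2, or 1742 RPKM (1714 to 1770). By level it was gene number 18 of the parent, 18 of subclone 1 and 17 of subclone 2. KRT18, its type I partner, took 6353 reads of the parent library, or 953 RPKM (930 to 977), 7358 of subclone 1, or 1075 RPKM (1050 to 1100), and 7355 of subclone 2, or 1048 RPKM (1024 to 1072). The pair made up 82.2%, 82.0% and 77.9% of the summed RPKM of the 10 members in the parent, subclone 1 and subclone 2.

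The levels of the pair were nearly even across the libraries. KRT8 in subclone 1 was 1.02 times the parent (0.993 to 1.04), which is not distinguishable at this depth, and in subclone 2 it was 1.08 times the parent (1.05 to 1.11) and 1.06 times subclone 1 (1.04 to 1.09). KRT18 was 1.13 times the parent in subclone 1 (1.09 to 1.17) and 1.10 times the parent in subclone 2 (1.06 to 1.14). Between the subclones its ratio was 0.975 (0.944 to 1.01). Differences of this size depend on the scale: the log2 ratio of KRT8 in subclone 1 over the parent, 0.02, became -0.11 with division by ACTB and -0.03 with division by GAPDH, and that of KRT18 in subclone 2 over subclone 1, -0.04, became 0.09 and 0.08. Per unit of length, KRT8 mRNA exceeded KRT18 mRNA 1.69-fold in the parent, 1.53-fold in subclone 1 and 1.66-fold in subclone 2. These folds between genes also depend on the unknown treatment of reads shared with other genes.

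**Figure D1:**
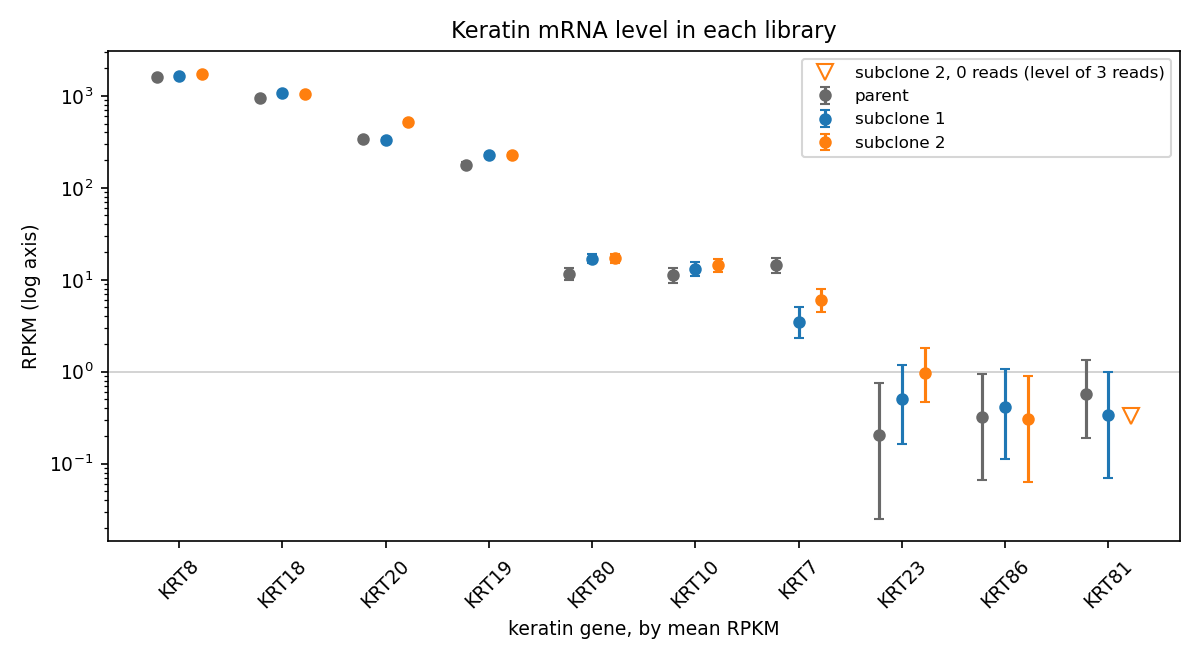
RPKM of each keratin (log axis) in the parent, subclone 1 and subclone 2, with points for the 1 library of each line and bars for exact 95% Poisson intervals, and an open triangle at the level of 3 reads where no read was counted. KRT8, KRT18, KRT20 and KRT19 lie above 100 RPKM in each library, KRT80, KRT10 and KRT7 lie between 3.47 and 17.1 RPKM, and KRT23, KRT86 and KRT81 lie below 1 RPKM with intervals that overlap across the libraries.

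KRT20 and KRT19, both type I chains, followed KRT18 in abundance. KRT20 was counted 2764 times in the parent library, a level of 341 RPKM (329 to 354), 2759 times in that of subclone 1, at 332 RPKM (319 to 344), and 4477 times in that of subclone 2, at 525 RPKM (510 to 541). Its level in subclone 2 thus lay apart from those of the parent and subclone 1, whose intervals overlapped. KRT20 in subclone 2 was 1.54 times the parent (1.47 to 1.61) and 1.58 times subclone 1 (1.51 to 1.66), while subclone 1 over the parent was 0.972 (0.922 to 1.03). The log2 ratios of subclone 2, 0.62 over the parent and 0.66 over subclone 1, were below the 2-fold mark and stood at percentiles 88.3 and 96.4 of the 11370 genes compared. Ordered by level, KRT20 was gene number 162 of the parent, 172 of subclone 1 and 103 of subclone 2.

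KRT19, the shortest keratin chain of the set and a marker of bile duct cells, showed another order. It took 1191 reads of the parent library, or 178 RPKM (168 to 188), 1573 of subclone 1, or 229 RPKM (218 to 241), and 1615 of subclone 2, or 229 RPKM (218 to 241). Both subclones thus lay above the parent and could not be told from each other. The fold over the parent was 1.29 in subclone 1 (1.19 to 1.39) and 1.29 in subclone 2 (1.19 to 1.39), and the ratio between the subclones was 1.00 (0.934 to 1.07). KRT20 exceeded KRT19 1.92-fold in the parent, 1.45-fold in subclone 1 and 2.29-fold in subclone 2.

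KRT7, the type II chain that accompanies KRT19 in bile ducts, was the keratin that differed most between the libraries, among those with a mean of at least 1 RPKM. It was counted 113 times in the parent library, a level of 14.4 RPKM (11.8 to 17.3), 28 times in that of subclone 1, at 3.47 RPKM (2.30 to 5.01), and 50 times in that of subclone 2, at 6.04 RPKM (4.48 to 7.96). Neither subclone's interval reached that of the parent. The parent exceeded subclone 1 by 4.14-fold (2.72 to 6.51), a log2 ratio of subclone 1 over the parent of -2.02, which was percentile 0.431 of the genes compared. It exceeded subclone 2 by 2.38-fold (1.69 to 3.39), a log2 ratio of -1.24 or percentile 1.32. Subclone 2 was 1.74 times subclone 1 (1.08 to 2.87), and the intervals of their levels overlapped. KRT7 and KRT19 thus differed from the parent in opposite directions in both subclones, under each of the scalings tried.

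KRT7 was the only keratin past 2-fold among the 7 members with a mean RPKM of at least 1. In subclone 1 over the parent, 0 of 7 members were at least 2-fold higher, beside 4.9% of all 11370 genes at that level, and 1 of 7 was at least 2-fold lower, beside 1.82%. In subclone 2 over the parent, 0 of 7 were higher, beside 5.33%, and 1 of 7 was lower, beside 2.16%. Between the subclones, 0 of 7 were higher in subclone 2, beside 1.42%, and 0 of 7 were lower, beside 1.39%. Counts of 0 or 1 among 7 genes do not set the keratins apart from these backgrounds. The comparisons with the parent share its library. The median log2 ratio of the 7 keratins was 0.17 in subclone 1 over the parent, 0.35 in subclone 2 over the parent and 0.09 between the subclones, beside medians of 0.0043, 0.037 and 0.034 over all genes.

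**Figure D2:**
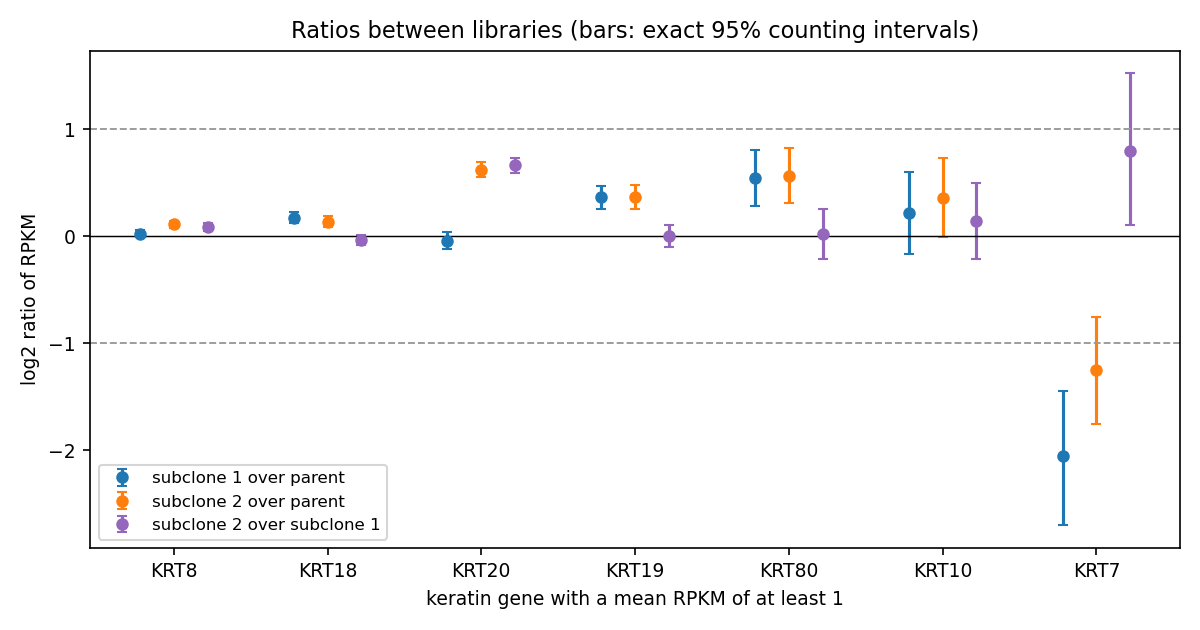
The log2 ratio of RPKM between libraries for the 7 keratins with a mean RPKM of at least 1, in subclone 1 over parent, subclone 2 over parent and subclone 2 over subclone 1, with bars for exact 95% counting intervals and dashed lines at 2-fold. The ratios of KRT7 over the parent pass the lower line in both subclones, and KRT20 stands above 0 only where subclone 2 is compared. The bars of KRT18, KRT19 and KRT80 lie above 0 in both comparisons with the parent, those of KRT18 closest to it.

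KRT80 and KRT10 were expressed at levels like that of KRT7 in the parent. KRT80 is a type II chain found in several epithelia, often near desmosomes. It took 202 reads of the parent library, or 11.6 RPKM (10.02 to 13.3), 303 of subclone 1, or 16.9 RPKM (15.0 to 18.9), and 315 of subclone 2, or 17.1 RPKM (15.3 to 19.1). Both subclones lay above the parent, 1.46-fold in subclone 1 (1.22 to 1.75) and 1.48-fold in subclone 2 (1.24 to 1.78), and their own ratio was 1.01 (0.863 to 1.19). KRT80 and KRT19 therefore shared an order, with the subclones alike and above the parent, although KRT80 was more than 10 times less abundant than KRT19. KRT18 had the same order with smaller folds over the parent, 1.13 in subclone 1 and 1.10 in subclone 2. In the parent KRT7 and KRT80 had overlapping intervals, and in both subclones KRT80 stood above KRT7 with no overlap.

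KRT10, a type I chain of the differentiated layers of the epidermis, is transcribed at a low level in many other cells. It was counted 109 times in the parent library, a level of 11.2 RPKM (9.22 to 13.5), 130 times in that of subclone 1, at 13.0 RPKM (10.9 to 15.5), and 147 times in that of subclone 2, at 14.4 RPKM (12.2 to 16.9). All 3 intervals overlapped. The folds of 1.16 in subclone 1 over the parent (0.893 to 1.51), 1.28 in subclone 2 over the parent (0.993 to 1.66) and 1.10 between the subclones (0.865 to 1.41) left no difference detectable at this depth.

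The 3 remaining members rested on 10 reads or fewer in each library. KRT23, a type I chain, had 2 reads in the parent (0.206 RPKM), 5 in subclone 1 (0.501 RPKM) and 10 in subclone 2 (0.978 RPKM). The ratio of subclone 2 over the parent was 4.75 with an interval from 1.01 to 44.6, and the ratio of subclone 1 over the parent, 2.43, had an interval from 0.399 to 25.6. KRT81 and KRT86 are type II chains of hair. KRT81 had 5 reads in the parent (0.578 RPKM), 3 in subclone 1 (0.338 RPKM) and 0 in subclone 2, where 3 reads, the limit that a count of 0 allows, would be 0.330 RPKM. The counting interval of the ratio of subclone 2 over the parent ran from 0 to 1.04 and so included 1. KRT86 had 3, 4 and 3 reads in the parent, subclone 1 and subclone 2 (0.320, 0.415 and 0.304 RPKM), and the intervals of all its ratios included 1. Given the run of 605 identical bases shown above, the division of reads between KRT81 and KRT86 is uncertain.

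Because each filament needs both types, the members were also summed by type. The 5 type II members together had 1641 RPKM in the parent, 1662 RPKM in subclone 1 and 1766 RPKM in subclone 2. KRT8 held 98.4%, 98.7% and 98.7% of these sums. The 5 type I members had 1484 RPKM in the parent, 1649 RPKM in subclone 1 and 1818 RPKM in subclone 2. Here KRT18 held 64.2%, 65.2% and 57.7%, KRT20 held 23.0%, 20.1% and 28.9%, and KRT19 held 12.002%, 13.9% and 12.6%. Type II mRNA was therefore almost a matter of 1 gene, while type I mRNA was spread over 3.

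The ratio of type II to type I mRNA was 1.11 in the parent (1.08 to 1.13), 1.01 in subclone 1 (0.983 to 1.03) and 0.971 in subclone 2 (0.949 to 0.994). The parent was thus above both subclones, and only in its library did type II RPKM exceed type I RPKM by more than counting error. Whether a ratio lies above or below 1 also depends on reads shared with other genes, whose treatment is not known. Of the windows of 50 bases, 48.4% of those of KRT8 and 58.0% of those of KRT18 occurred in other genes. Without KRT8 and KRT18 the ratio was 0.0505, 0.0367 and 0.0305 in the same order. What remains is mainly KRT80 and KRT7 over KRT20 and KRT19, so these values restate their levels given above. All 10 members together took up 0.754% of the summed RPKM of the parent library, 0.794% in subclone 1 and 0.855% in subclone 2. The absolute amount of keratin mRNA per cell cannot be read from RPKM, and in a culture fewer cells that express a gene cannot be told from less RNA per cell.

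**Figure D3:**
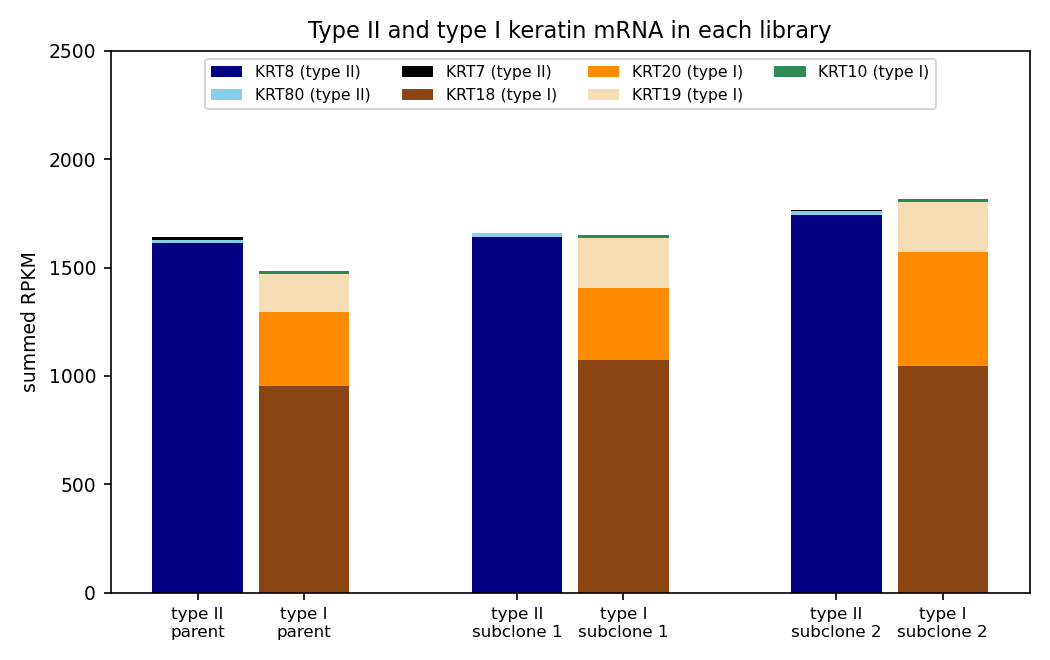
Summed RPKM of the type II and the type I keratins with a mean of at least 1 RPKM in each library, stacked by gene from a baseline of 0. The type II bars are almost wholly KRT8 (98.4% to 98.7% of the type II members), while the type I bars divide among KRT18, KRT20 and KRT19, and the KRT20 part is largest in subclone 2 (525 RPKM against 341 and 332 RPKM).

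The remaining keratin genes were nearly silent in these libraries. Of 44 other keratins, 30 were at 0 in all 3 libraries, 14 were listed in at least 1, and 1 had a mean RPKM of at least 1. That gene, KRT15, a type I chain of the basal layer of stratified epithelia, stood at 5.39 RPKM in the parent, 5.36 RPKM in subclone 1 and 6.48 RPKM in subclone 2, and was not 2-fold changed. The others were below a mean RPKM of 1 and so were not counted as changed or unchanged. KRT17, a type I chain of basal and injured epithelium, had 12, 4 and 3 reads in the parent, subclone 1 and subclone 2. Its ratio had an interval from 0.0763 to 1.07 in subclone 1 over the parent and from 0.0430 to 0.880 in subclone 2 over the parent. KRT13, a type I chain of mucosal epithelia, had 6, 1 and 0 reads in the same order, with an interval from 0.00353 to 1.34 in subclone 1 over the parent and from 0 to 0.807 in subclone 2 over the parent. The third by level, KRT12, a type I chain of the cornea, had 2, 5 and 5 reads in the parent, subclone 1 and subclone 2. Together the 44 genes summed to 8.82, 6.67 and 8.17 RPKM in the parent, subclone 1 and subclone 2, against 3124, 3311 and 3583 RPKM for the 10 members.

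Other intermediate filament genes were compared as a group. Of 16 genes listed for this group, which holds vimentin, desmin, neurofilaments, nestin and the lamins of the nuclear envelope, 11 were listed in at least 1 library and 6 had a mean RPKM of at least 1. None of the 6 was 2-fold higher in any comparison, beside 4.9% of all 11370 genes in subclone 1 and 5.33% in subclone 2 over the parent. Only 1, NES, was at least 2-fold below the parent, in subclone 2, beside 2.16% of all genes. NES encodes nestin, a filament protein of progenitor cells, and stood at 83.6 RPKM in the parent, 50.01 RPKM in subclone 1 and 39.4 RPKM in subclone 2, with log2 ratios over the parent of -0.74 and -1.08. LMNA, the gene of lamins A and C, had 262, 243 and 244 RPKM in the parent, subclone 1 and subclone 2, and LMNB2, another lamin, had 37.6, 32.8 and 32.5 RPKM. The median log2 ratio of the 6 genes was -0.18 in subclone 1 over the parent and -0.20 in subclone 2 over the parent, against medians of 0.17 and 0.35 for the 7 keratins.

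Keratin filaments are anchored to desmosomes through desmoplakin, plakoglobin and plakophilins, are cross-linked by plectin and bind 14-3-3 proteins. Of 18 genes put in a list of such linkers and partners, 17 were listed in at least 1 library and 14 had a mean RPKM of at least 1. In subclone 1 over the parent, 0 were 2-fold higher and 1 was 2-fold lower, beside 4.9% and 1.82% of all 11370 genes. In subclone 2 over the parent, 1 was higher and 1 was lower, beside 5.33% and 2.16%. Between the subclones there were 0 in each direction, beside 1.42% and 1.39%. Counts this small do not set the group apart from these shares. The gene lower in both subclones was SFN, encoding 14-3-3 sigma, an epithelial adaptor known to bind keratin 17. It stood at 68.0 RPKM in the parent, 29.9 RPKM in subclone 1 and 32.5 RPKM in subclone 2, with log2 ratios over the parent of -1.18 and -1.06. The gene higher in subclone 2 was JUP, encoding plakoglobin, with 51.1 RPKM in the parent, 79.4 RPKM in subclone 1 and 102 RPKM in subclone 2. Its log2 ratio over the parent, 0.63 in subclone 1 and 1.00 in subclone 2, barely passed 2-fold in subclone 2, and centring on the median of all genes, which moves it by -0.04, takes it below. The members of highest level were the 14-3-3 genes YWHAZ (850, 842 and 863 RPKM) and YWHAE (534, 495 and 522 RPKM), followed by KRTCAP2 (245, 270 and 288 RPKM). KRTCAP2 encodes a subunit of the oligosaccharyltransferase rather than a filament linker, and the counts and median of the list include it. The median log2 ratio of the 14 genes was 0.06 in subclone 1 over the parent and 0.07 in subclone 2 over the parent.

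**Figure D4:**
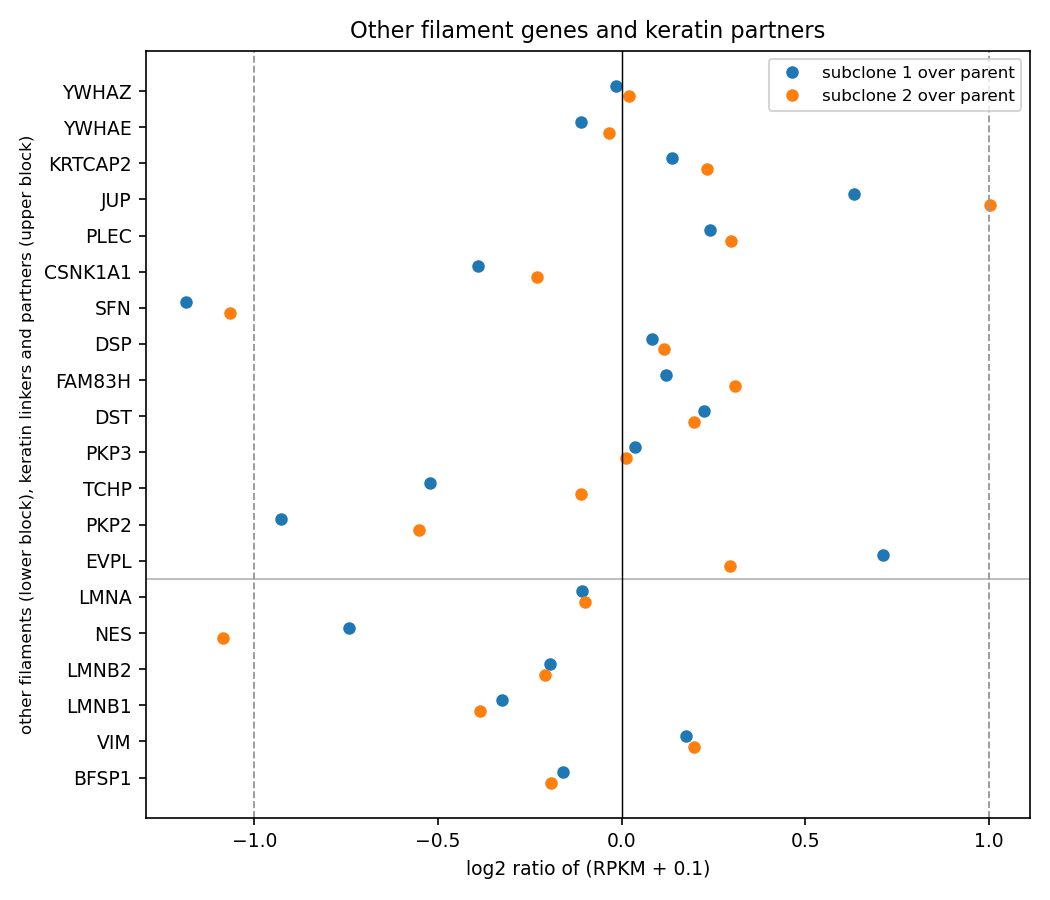
The log2 ratio of RPKM plus 0.1 over the parent, for keratin linkers and partners (upper block) and other intermediate filament genes (lower block) that averaged 1 RPKM or more, each block ordered by mean RPKM, with dashed lines at 2-fold. SFN passes the lower line in both subclones, NES passes it in subclone 2, JUP lies at the upper line in subclone 2, and the remaining genes lie between the lines.

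Most neighbouring genes on the chromosome did not follow KRT7. The 5 listed genes on each side of the type II cluster that are not keratins were the same 10 for KRT7, KRT8, KRT18, KRT81 and KRT86, and 8 had a mean RPKM of at least 1. In subclone 1 over the parent none of the 8 was 2-fold lower and their log2 ratios ran from -0.78 to 1.37, the highest that of TENC1, with a median of 0.07. In subclone 2 over the parent 1 was 2-fold lower, IGFBP6, encoding an insulin-like growth factor binding protein, with a log2 ratio of -0.68 in subclone 1 and -1.10 in subclone 2. The median of the 8 in subclone 2 was 0.03. Of all 11370 genes, 1.82% were 2-fold lower than the parent in subclone 1 and 2.16% in subclone 2. For KRT80 the set held 1 other gene in place of IGFBP6, with 7 genes at a mean of 1 RPKM or more and medians of 0.28 and 0.25. KRT10, KRT20 and KRT23 shared 10 neighbours, of which 3 had a mean RPKM of at least 1 and none was 2-fold changed. Their log2 ratios in subclone 2 over the parent ran from 0.01 to 0.59, beside 0.62 for KRT20. Among the 10 neighbours of KRT19, 5 had a mean RPKM of at least 1. JUP was the 1 past 2-fold, higher in subclone 2, beside 5.33% of all genes higher there.

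The genes whose pattern over the 3 libraries was most like that of KRT7 were sought among the 11370 genes compared, by the Euclidean distance between their log2 ratios of subclone 1 and subclone 2 over the parent. The nearest were LOC400027 at a distance of 0.165, PHGDH at 0.167, SLC43A3 at 0.201, CLDN11 at 0.284 and KIAA1199 at 0.288. PHGDH, the enzyme that opens serine synthesis, stood at 14.8 RPKM in the parent, 3.22 RPKM in subclone 1 and 6.60 RPKM in subclone 2, close to the levels of KRT7 in each library. CLDN11, a claudin of tight junctions, was lower, at 3.07, 0.550 and 1.15 RPKM. No keratin, linker or other filament gene was among the 5, which says little because these lists are a small part of the 11370 genes.

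Promoters were found for 3 of the 10 members, KRT8, KRT10 and KRT20, in a RefSeq table of 35116 windows on GRCh38.p14 that run from 250 bases before a gene's start to 50 after it. They were searched on both strands for a TATA box, spelled TATAAA, which was found in 11.5% of all windows. Among the members it was found in the window of KRT10, beginning 29 bases before the start. The core that the factor SP1 binds, spelled GGGCGG, was found in 44.95% of all windows and in none of the 3. An AP-1 site, spelled TGANTCA, was found in 7.71% of all windows and likewise in none of the 3. The window of KRT8 lies within the annotated span of the gene, at an internal start.

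Markers of the labelled cell type were checked beside the keratins. The summed RPKM of 10 hepatocyte markers was 24.8 in the parent, against 113 in subclone 1 and 107 in subclone 2, and 6 of the 10 had a mean RPKM of at least 1. Of these, 4 were 2-fold higher in subclone 1 and 3 in subclone 2 than in the parent, beside 4.9% and 5.33% of all 11370 genes. ALB, encoding albumin, stood at 2.46, 49.5 and 68.8 RPKM in the parent, subclone 1 and subclone 2, and HNF4A, a transcription factor of hepatocytes, at 11.7, 11.9 and 16.0 RPKM, while TF, encoding transferrin, had 5.71, 30.3 and 5.88 RPKM, and SERPINA1, TTR and APOA1 stayed below 1 RPKM in each library. FGB, a fibrinogen chain, had 1.66, 14.5 and 5.60 RPKM, and APOB, an apolipoprotein, had 0.2997, 1.23 and 4.17 RPKM. TF was thus high in subclone 1 alone, while ALB, FGB and APOB were higher than the parent in both subclones. APOB was below 1 RPKM in the parent, so it reached a mean of 1 RPKM only through the subclones, where it was higher. KRT7 was lower and ALB higher than in the parent in both subclones. The other biliary markers with a mean of at least 1 RPKM were mixed. SPP1 was also lower in both, whereas KRT19 and SOX9 were higher in both. Whether any of these genes are linked was not tested. Of 10 biliary markers, which include KRT7 and KRT19, 4 were at 0 in all libraries, CFTR and PROM1 among them. Another 4 had a mean RPKM of at least 1, 1 of them 2-fold lower in subclone 1 and 2 of them in subclone 2. Of all 11370 genes, 1.82% and 2.16% were 2-fold lower in these comparisons. The sum of the 10 markers was 803, 631 and 442 RPKM, mostly SPP1, encoding osteopontin, at 603, 390 and 199 RPKM. SOX9, a transcription factor of bile duct cells, had 5.85, 8.32 and 6.73 RPKM.

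Markers of other cells were summed in the same way. None of 8 stratified epithelium markers had a mean RPKM of 1, with sums of 2.43, 1.95 and 1.71 RPKM in the parent, subclone 1 and subclone 2, and KRT5, KRT1 and IVL were at 0. Of 8 fibroblast markers, 3 had a mean RPKM of at least 1, with LUM (10.1, 24.0 and 21.0 RPKM) and DCN (0.773, 4.42 and 2.75 RPKM) at least 2-fold higher in both subclones and COL3A1 (4.42, 2.21 and 0.463 RPKM) at least 2-fold lower in subclone 2. Of all 11370 genes, 4.9% and 5.33% were higher in the subclones and 2.16% lower in subclone 2. DCN reached a mean of 1 RPKM only through the subclones. The sums of the 8 markers were 15.7, 31.2 and 24.3 RPKM, COL1A1 and COL1A2 stayed below 1 RPKM, and PDGFRB and FAP were at 0. The sums of 5 endothelial markers were 5.11, 11.9 and 7.60 RPKM, with PECAM1 at 3.33, 9.81 and 4.46 RPKM and KDR at 1.36, 1.93 and 3.08 RPKM, and those of 5 leukocyte markers were 76.6, 113 and 101 RPKM, mostly CD68, with PTPRC below 1 RPKM and CD3E at 0. The part of other cell types in the keratin values was not tested.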

How the data were processed

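mRNA of 3 lines (1 library each) was sequenced. The authors deposited RPKM for genes with values above 0, on hg19 per the labels; aligner, counter, annotation, strand and the handling of shared reads were not given in the sources used here. Genes without a row in a library count as 0. Ratios were log2 of RPKM plus 0.1, which understates changes of low genes. "At least 2-fold" was counted among the 11370 genes that averaged 1 RPKM or more. A gene of low level can reach this average through the libraries where it is high.

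The values of a gene stand in ratios of whole reads, which gave the library totals and, for 82.1% of the 11370 genes and all 10 keratins, reads. The gene length that fixes the reads was matched to GENCODE 29 transcripts tied to RefSeq, within 10%. Levels carry exact Poisson intervals and ratios Clopper-Pearson intervals at 95%, for counting error only, since PCR copies are not told apart. For a count of 0, 3 reads were taken as a rough limit, which is below the upper end of the exact interval. The steps were run on simulated data. In the deposited data, 38.55% of 2000 genes came within 1% of a reference length at the recovered totals. The share was 20.9% with totals doubled and 5.55% with totals halved, so the reads rest on an incomplete match.

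All members are named. Of other lists, counts are given, with genes past 2-fold (at most 6 a list, by mean RPKM) and the 3 of highest mean RPKM. Neighbours past 2-fold in the direction of a member and the 5 genes nearest to KRT7 are named. KRT17, KRT13, KRT12 and markers at or near 0 are named for their level. Some sequences and gene names are not reported here. The members were given with the series, and the lists were written with a summary of earlier results of these data known. Alternatives were pseudocounts of 0.01 and 1, rescaling to the same sum, to the upper quartile, to ACTB or to GAPDH, centring on the median, no filter or 5 RPKM, and 1.5-fold. Python 3.11.15, numpy 2.4.6, pandas 2.3.3, scipy 1.17.1 and matplotlib 3.10.9 were used.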

Additional observations from a re-analysis of the deposited data

Results flagged for a closer look

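The log2 ratios of KRT20 and of KRT86 over the parent had opposite signs in the subclones, in part within counting error. This is a contrast of single libraries that share the parent, and it was not tested. The log2 ratio of KRT20 was -0.04 in subclone 1 over the parent, within counting error, and 0.62 in subclone 2 over the parent, and that of subclone 2 over subclone 1 was 0.66. For KRT86, with 3 or 4 reads in each library, the log2 ratio was 0.30 in subclone 1 over the parent and -0.06 in subclone 2 over the parent, and -0.35 between the subclones, all within counting error.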

How the results depend on the processing

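Under 7 other pseudocounts, scalings and centrings, 129 of 147 log2 ratios of the 7 keratins with a mean RPKM of 1 or more stayed inside the counting interval of the reported ratio (192 of 210 with KRT23, KRT81 and KRT86, whose intervals are very wide), and no ratio whose interval excluded 1 changed sign. The log2 ratio of KRT7 over the parent ran between -2.15 and -1.78 (subclone 1) and between -1.27 and -1.13 (subclone 2). Division by ACTB shifted log2 ratios by -0.13 in subclone 1 over the parent and by 0.13 between the subclones, and division by GAPDH by 0.12 between the subclones, so values that moved there moved with all genes. In subclone 1 over the parent, ACTB gave -0.11 for KRT8, 0.041 for KRT18, 0.23 for KRT19 and -0.17 for KRT20, and GAPDH gave -0.030 for KRT8 and 0.12 for KRT18. In subclone 2 over the parent, KRT8 became 0.073 with centring and 0.17 with GAPDH, and KRT18 became 0.20 with GAPDH. In subclone 2 over subclone 1, KRT8 became 0.053 with centring, 0.21 with ACTB and 0.20 with GAPDH, KRT18 0.089 and 0.081, KRT19 0.13 and 0.12, and KRT20 0.79 and 0.78 with ACTB and GAPDH. Over all genes, ACTB moved the share of higher among 2-fold changed genes from 72.9% to 57.8% in subclone 1 over the parent and from 50.5% to 63.9% between the subclones, and GAPDH moved the latter to 62.6%.

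With no filter on RPKM, subclone 2 over the parent had 1 of 10 keratins 2-fold higher (KRT23) and 2 lower (KRT7 and KRT81). Of all 16149 genes, 1553 were higher and 941 lower in that comparison. In subclone 2 over subclone 1, 1 keratin was lower (KRT81), beside 902 of all genes. At 1.5-fold, 1 of 7 keratins was higher in subclone 2 than in the parent (KRT20), beside 1444 of 11370 genes. Over subclone 1, 2 of 7 were higher (KRT7 and KRT20), beside 540 of 11370 genes. The ratio of type II to type I mRNA without KRT8 and KRT18 was 0.0505, 0.0367 and 0.0305 in the parent, subclone 1 and subclone 2, by construction. No paired analysis was possible because there is 1 library a line, which also meant that none could be left out. Depth limits KRT23, KRT81 and KRT86, which had 10 reads or fewer.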
